A study of Mus musculus with 4 samples.

Results

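The Kruppel-like factor genes Klf6, Klf2, Klf3, Klf4, Klf5, Klf7, Klf9, Klf10 and Klf12 were followed in maps of H3K36me2, the dimethyl mark on lysine K36 of histone H3, in mesenchymal stem cells (MSCs) grown from the bone marrow of mice. The 9 of 21887 protein-coding genes were chosen by measured values: peak counts of these same libraries were known when the list was made, and the gene-poor stretch of chromosome 13 from 5 to 6 Mb beside Klf6 was selected on its counts. Counts near the members and in the stretch are therefore a description, and their intervals make no allowance for that choice. The peaks taken as a member's were those in the gene or within 500 kb on either side. By this rule the melatonin library had 111 of its 7699 peaks near a member, and the untreated library had 128 of its 8361 peaks. The stretch held 36 melatonin and 72 untreated peaks, some of them farther than 500 kb from Klf6.

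The tested cells received 1 µM melatonin, the pineal hormone, for 24 hours, and the other cells are labelled untreated. The series' design text describes the treated MSCs as coming from old donors, and no strain, age in months or number of animals was given. The protocol field repeats the melatonin treatment for every sample, so the groups rest on the treatment label. Each condition had 1 ChIP library and 1 input library without antibody. The ChIP libraries held 14180076.5 tags with melatonin and 13198427.5 tags without. With 1 library per condition no test between conditions was possible. Every interval given covers counting error only, since no replicate shows the spread between libraries. PCR copies also cannot be told from separate molecules when reads carry no molecular identifier.

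Kruppel-like factors are transcription factors that end in C2H2 zinc fingers and bind GC-rich boxes and CACCC boxes in promoters and enhancers. By sequence and partner they fall into activator-like members (here Klf2, Klf4, Klf5, Klf6 and Klf7), members that recruit the corepressor CtBP (Klf3 and Klf12) and members that recruit the corepressor Sin3 (Klf9 and Klf10). Several act on the choice of stromal progenitors between bone and fat. H3K36me2 is written by the NSD enzymes, spreads over gene bodies and intergenic sequence, and counteracts the Polycomb mark H3K27me3. In these lists it was called as short regions of mostly 1000 bp, and a gene or site without a peak is one where the mark did not pass the peak caller's thresholds, not one where it was shown to be missing.

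A peak marks the genome and not an RNA, so the cell type could not be read from expression. Of 10 MSC marker genes, Nt5e carried peaks in the gene or 2 kb beside it in both libraries and Lepr only in the untreated list. Of 4 leukocyte genes Ptprc did so with melatonin and none without, and of 3 endothelial genes Pecam1 did so with melatonin and none without. Over all protein-coding genes the share was 5.94% with melatonin and 5.71% without, and nothing is read from lists this short.

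RefSeq's promoter table (GRCm38.p6, 250 bases before to 50 after a gene's start) held 7 of the 9 members. The promoters of 3 members are shown for the position of peaks around these genes, and no result rests on the sequences. Klf6 lies amid more peaks than any other member yet has none at its start. Klf9 has a peak 9.29 kb before its start with melatonin and 12.2 kb before it without. Klf12 is the member with peaks inside the gene. Capitals mark GC boxes (GGGCGG) and CACCC boxes (CACCC), searched on both strands, and no marked boxes overlap in these promoters. The windows are chr13:5861239-5861538, plus strand, chr19:23140976-23141275, plus strand, and chr14:100149747-100150046, minus strand.
Klf6 promoter: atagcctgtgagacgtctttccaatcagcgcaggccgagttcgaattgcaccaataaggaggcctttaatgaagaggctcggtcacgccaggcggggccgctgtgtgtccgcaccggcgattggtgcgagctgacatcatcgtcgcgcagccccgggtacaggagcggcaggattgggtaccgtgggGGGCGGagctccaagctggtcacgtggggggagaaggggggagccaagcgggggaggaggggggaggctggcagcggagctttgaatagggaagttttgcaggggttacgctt
Klf9 promoter: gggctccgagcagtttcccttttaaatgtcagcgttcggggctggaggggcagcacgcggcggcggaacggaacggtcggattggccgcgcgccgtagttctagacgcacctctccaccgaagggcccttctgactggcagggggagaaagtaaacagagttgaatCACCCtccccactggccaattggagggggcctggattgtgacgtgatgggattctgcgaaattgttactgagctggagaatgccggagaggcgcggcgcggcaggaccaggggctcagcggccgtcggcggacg
Klf12 promoter: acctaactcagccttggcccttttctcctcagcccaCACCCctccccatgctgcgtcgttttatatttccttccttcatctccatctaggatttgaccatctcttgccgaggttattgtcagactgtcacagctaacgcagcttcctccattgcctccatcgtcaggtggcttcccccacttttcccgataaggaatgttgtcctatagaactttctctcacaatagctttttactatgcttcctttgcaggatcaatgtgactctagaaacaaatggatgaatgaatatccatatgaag

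Klf6 had 1 GC box and no CACCC box, while Klf9 and Klf12 each had no GC box and 1 CACCC box. A GC box was present in 35.7% and a CACCC box in 57.5% of all 32851 promoters in the table. The Klf6 and Klf9 promoters were 63.0% and 63.3% G or C, above the table's median of 52.7%, and the Klf12 promoter was 45.7%. The start that the table gives for Klf12 lies inside the interval of the gene. No peak of either list reached any of the 7 promoters. The peak nearest to a start lay 9.29 kb away with melatonin (Klf9) and 3.41 kb away without (Klf6).

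Every member had a peak within 500 kb in each library, but the number varied between 1 and 43 with melatonin and between 1 and 61 in untreated cells. Having such a peak is common: 65.2% of the 21887 genes did with melatonin and 60.7% did without. The members' median was 10 peaks with melatonin and 9 without, against a median of 1 in each library over all protein-coding genes. That gap describes the choice of members and supports nothing further. Klf5 and Klf12 lie on chromosome 14 with windows that overlap, and 1 untreated peak counted for both.

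**Figure D1:**
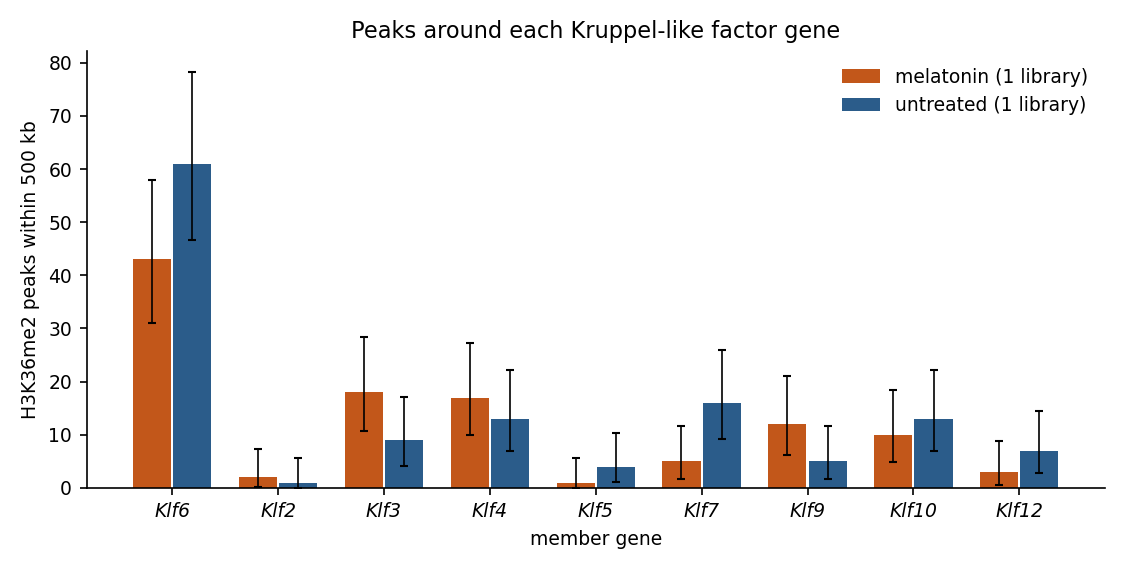
Number of H3K36me2 peaks within 500 kb of each member gene in the melatonin library (orange, left) and the untreated library (blue, right). Bars are counts from 1 library each and error bars are exact 95% Poisson intervals; Klf6, with 43 and 61 peaks, stands above the other members, which had at most 18 and 16.

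Klf6, a broadly expressed early-response factor known as a tumour suppressor, had the most peaks around it. Its gene (chromosome 13, 5861489 to 5870393) had 43 melatonin peaks within 500 kb (95% Poisson interval 31.1 to 57.9) and 61 untreated peaks (46.7 to 78.4). No other protein-coding gene had as many untreated peaks in its window, and 6 genes, Klf6 included, had 43 or more with melatonin. The melatonin count over the untreated count was 0.705 (exact binomial interval 0.466 to 1.06), against 0.921 over the whole lists. The interval holds both 1 and the overall ratio, so the difference over this window was not larger than counting error. All intervals given here treat peaks as independent counts, although some lay close together. The smallest gap between peaks of the stretch was 1.54 kb with melatonin and 0.203 kb without. Among peaks of 6-fold or more over input Klf6 had 15 in each library, a ratio of 1. Klf6 was the only protein-coding gene within the window. Its neighbours were Akr1e1, an aldo-keto reductase gene 1252 kb away toward lower coordinates, and Pitrm1, a mitochondrial peptidase gene 678 kb away on the other side.

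The Klf6 gene itself and the 2 kb on either side were without a peak in both lists. With melatonin the nearest peaks lay 12.98 kb before the gene, at 5847512 to 5848512, and 31.5 kb after it, at 5901848 to 5902848. These 2 peaks had 12.3 and 12.7 normalized tags (tags per 10000000 in the library), on 3 input tags each, with folds over input of 5.07 and 5.22, all as the authors' peak caller gave them. Input tags are raw with melatonin and scaled to the ChIP library without, so they are compared with ChIP tags within a library. Without melatonin 8 peaks lay within 50 kb, 6 before the gene and 2 after it. The closest, at 5857082 to 5858082, was 3.41 kb before the gene with 12.1 normalized tags, 2.7 input tags and a fold of 5.86. The next, at 5855159 to 5856159, was 5.33 kb before the gene with 13.3 normalized tags, 2.7 input tags and a fold of 6.41. Both of these untreated peaks overlapped 1700016G22Rik, a long noncoding RNA gene that ends before the start of Klf6. None of the 10 peaks within 50 kb of Klf6 overlapped a peak of the other library, and over the whole lists only 6.12% of melatonin and 5.6% of untreated peaks did. Within 100 kb the counts were 8 with melatonin and 17 without.

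On each side of Klf6 the untreated list had more peaks, and whether the 2 sides differed was not tested. Before the gene, within 500 kb, there were 18 melatonin peaks and 31 untreated peaks. After it there were 25 and 30. Between 300 and 400 kb before the gene the melatonin list had 6 peaks and the untreated list 9, and between 400 and 500 kb they had 1 and 8. Between 200 and 300 kb before it the order turned, with 4 melatonin peaks and 0 untreated peaks. The farthest peaks kept by the 500 kb limit lay at 474 kb with melatonin and 497 kb without, and the first ones left out lay at 522 kb in each list.

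The stretch from 5 to 6 Mb of chromosome 13 held 36 melatonin peaks (Poisson interval 25.2 to 49.8) and 72 untreated peaks (56.3 to 90.7). The ratio was 0.5, with an exact binomial interval of 0.326 to 0.756 that lay below the overall ratio of 0.921, as a stretch picked for its counts would. Of 557 windows of 1 Mb with 10 or more peaks in both lists together, 16.3% had an untreated count at least 2 times the melatonin count, so such a ratio was not rare. By number of peaks it ranked 1st of 2634 windows by untreated peaks and by peaks in both lists together, and 4th by melatonin peaks, and no window had a more negative difference than its -36. The rest of chromosome 13 had 658 melatonin and 805 untreated peaks, a ratio of 0.817 (0.736 to 0.907).

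Of 25 windows with 50 or more peaks in both lists together, 4 had an untreated count at least 2 times the melatonin count. The stretch was 1 of these 4, and ratios over the 25 ran from 0.317 to 1.43. The 16 to 17 Mb window of chromosome 13 had 17 melatonin and 52 untreated peaks, so the stretch was not alone in its excess. The windows named next, which had the most peaks in both lists together after the stretch, did not share 1 direction. The 16 to 17 Mb window of chromosome 10, which holds no protein-coding gene, had 33 melatonin and 67 untreated peaks, a ratio of 0.493 (0.314 to 0.758). The 45 to 46 Mb window of chromosome 2 had 53 and 44 peaks, and the 96 to 97 Mb window of chromosome 10 had 50 and 42. The 62 to 63 Mb window of chromosome 15 had 38 and 43, and the 17 to 18 Mb window of chromosome 10 had 34 and 36. Counts were close to even in these last 4 windows, whose intervals all held 1. Beside the stretch, the 4 to 5 Mb window of chromosome 13 had 12 melatonin and 26 untreated peaks (ratio 0.462, 0.212 to 0.948), and the 6 to 7 Mb window had 26 and 27 (ratio 0.963, 0.54 to 1.71). The melatonin count was thus the lower one before the stretch and close to even after it, but these 2 intervals overlap. The first also holds the overall ratio of 0.921, so the counts do not tell the 2 flanks apart.

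**Figure D2:**
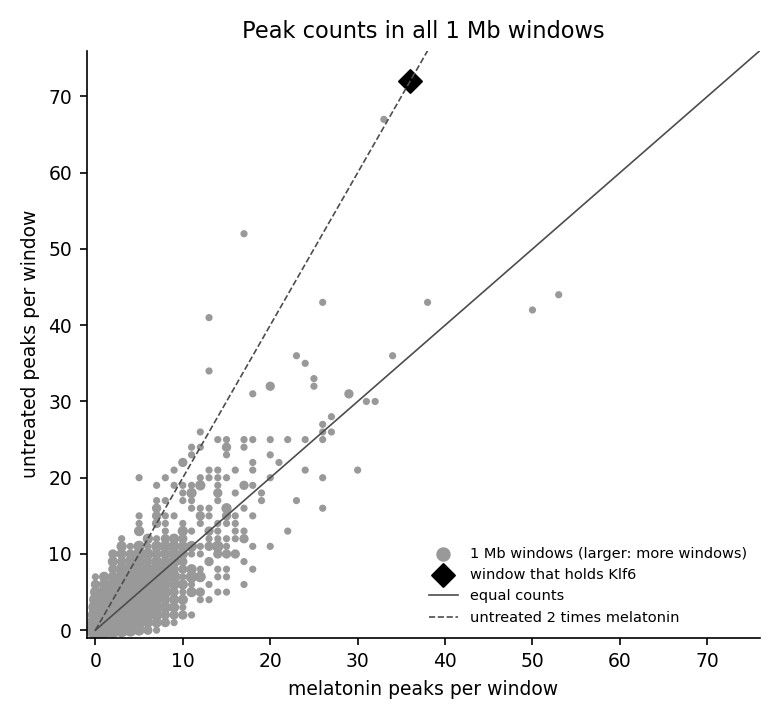
Melatonin peaks (x axis) and untreated peaks (y axis) in each 1 Mb window of the genome, 1 library each. The window that holds Klf6 (diamond, 36 and 72 peaks) has the most untreated peaks of any window and lies on the dashed line of 2 untreated peaks for each melatonin peak.

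Inside the stretch the untreated excess was spread over much of its length but not all of it. Cut into 10 pieces of 100 kb, it had more untreated peaks in 7 pieces, more melatonin peaks in 2 and equal counts in 1. The largest gaps were in the third piece (5200001 to 5300000), with 4 melatonin and 12 untreated peaks, and in the ninth (5800001 to 5900000), which contains Klf6, with 1 and 9. From 5500001 to 5800000 the libraries were nearly even, with 7 and 6, 2 and 1, and 6 and 6 peaks. The longest run without an untreated peak measured 116 kb, and the longest without a melatonin peak 73.2 kb. The first and last peaks in the stretch started at 5019582 and ended at 5998411 with melatonin, and started at 5031606 and ended at 5999144 without. The nearest ones left outside ended at 4998405 and started at 6004845 with melatonin, and ended at 4973986 and started at 6002704 without.

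**Figure D3:**
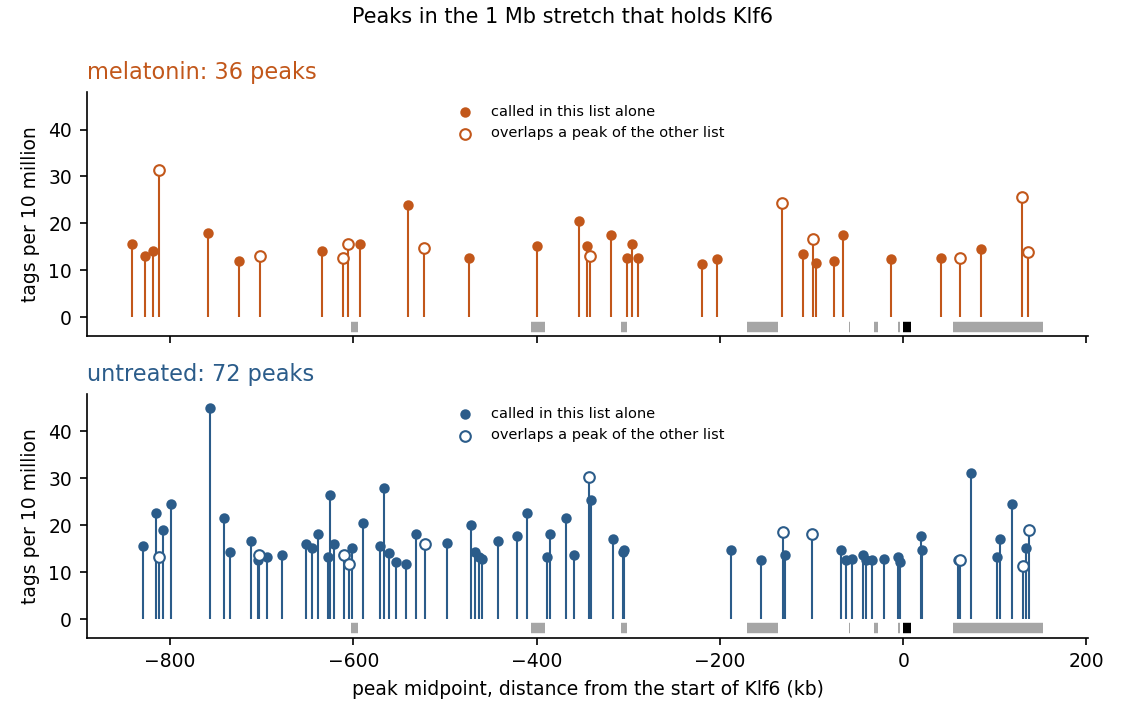
Every peak between 5 and 6 Mb of chromosome 13, placed by its distance from the start of Klf6 (x axis, kb) with its height in tags per 10000000 (y axis), for melatonin (top, 36 peaks) and untreated (bottom, 72 peaks). The black bar is Klf6, grey bars are noncoding genes and open circles are the 11 peaks of each list that overlap the other list; both lists lack a peak on Klf6 itself.

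Listed peaks had similar tags per kb in both libraries, and the lists differed in the number and width of peaks. Every listed peak had to reach 18 tags with melatonin or 17 without in a window of 1000 bp. Weaker sites could not enter either list, so the likeness cannot be read as equal strength of the mark. The whole lists had medians of 13 and 13.3 normalized tags per kb. Normalized tags per peak had a lowest, median and highest value of 11.3, 14.1 and 31.4 with melatonin and of 11.4, 15.0 and 45.1 without. Peaks called strongest here are those with the most normalized tags, a count that a wider peak can raise. Per kb of peak, the mean was 13.7 normalized tags with melatonin and 13.8 without. The peaks covered 40.7 kb with melatonin and 88.1 kb without, and held 559.5 and 1214 normalized tags in all, so the ratio of summed tags (0.461) followed the ratio of covered length (0.463). Because regions were called in each library on its own, these sums move with how much was called.

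Untreated peaks of the stretch were often wider than the smallest possible 1000 bp. With melatonin 28 of 36 peaks (77.8%) had that width, near the 79.2% of the other melatonin peaks. Without melatonin 43 of 72 (59.7%) had it, below the 79.8% of the other untreated peaks. The widest region measured 2112 bp with melatonin and 3140 bp without. That widest untreated region, at 5103789 to 5106929, had the most tags in the stretch (45.1 normalized tags on 14.8 input tags) and the lowest fold over input (4.01), just above the required 4.

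Input tags were low under the peaks in both libraries. Per kb, the median was 3 input tags in the melatonin peaks of the stretch and 3.6 in the untreated ones, against 6.17 and 6.6 expected from the library totals over the peak caller's genome size. In the peaks outside the stretch these medians were 3 and 3.5, close to those inside it. Every listed peak had to be 4-fold over input, which favours sites with few input tags. Neither the low values nor the match between the stretch and the rest is therefore a result about the sites. The fold over input, a ratio given by the authors' peak caller, lay between 4.02 and 27.8 (median 5.22) with melatonin and between 4.01 and 8.72 (median 5.07) without. A fold under 5 was found in 14 of 36 melatonin peaks and 35 of 72 untreated peaks, so many lay close to the threshold of 4. Whether the share of sites that just missed the threshold differed between the libraries was not tested, since the lists hold only sites that passed.

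**Figure D4:**
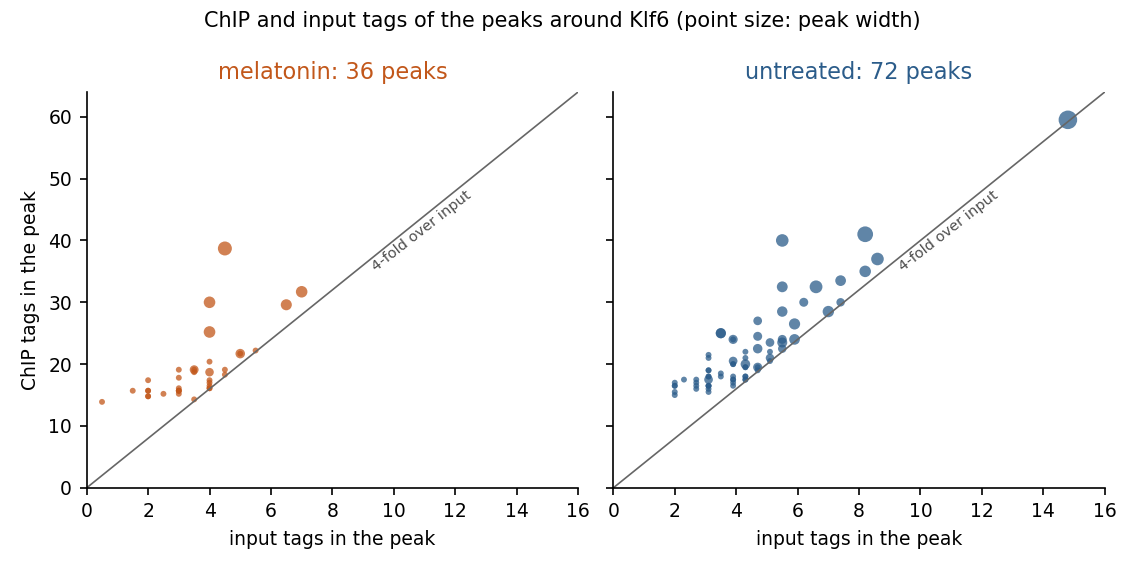
ChIP tags (y axis) against input tags (x axis) for each peak of the stretch, melatonin (left, 36 peaks) and untreated (right, 72 peaks), with each library's ChIP and input on 1 scale and larger points for wider peaks. The line marks the required 4-fold over input; the untreated peaks include wide ones with up to 59.5 ChIP tags, against at most 38.7 with melatonin.

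The strongest melatonin peaks by tags lay far from Klf6 on both sides. They were at 5048002 to 5050114 (31.4 normalized tags, 4.5 input tags, fold 8.6), at 5990459 to 5992142 (25.7 tags, 7 input tags, fold 4.53) and at 5728285 to 5729975 (24.3 tags, 4 input tags, fold 7.5). All of them overlapped an untreated peak, where 30.6% of the melatonin peaks in the stretch did. They were also wide, at 2112, 1683 and 1690 bp. The highest melatonin folds were instead at weak peaks with few input tags, led by 5641582 to 5642582, with a fold of 27.8 from 13.9 scaled ChIP tags and 0.5 input tags. It was followed by 5572113 to 5573113 (fold 10.4, 1.5 input tags) and 5226787 to 5227787 (fold 8.7, 2 input tags). None of these overlapped an untreated peak, and each was 1000 bp wide. The peak at 5641582 had the fewest normalized tags of the melatonin peaks in the stretch. With so few peaks and unlike widths, nothing is read from the overlap of strong and high-fold peaks.

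Without melatonin the strongest peaks after the widest region were at 5933736 to 5936204 and at 5517663 to 5519517. The first, 2468 bp wide and inside the long noncoding RNA gene Gm46401, had 31.1 normalized tags, 8.2 input tags and a fold of 5. The second, 1854 bp wide, had 30.3 tags, 5.5 input tags and a fold of 7.32. The highest untreated folds were at 5805191 to 5806191 (8.72), 5706331 to 5707331 (8.46) and 5920740 to 5921740 (8.46), each on 2 input tags. Of these 5 peaks and the widest region, only the peak at 5517663 overlapped a melatonin peak, where 15.3% of the untreated peaks in the stretch did. The highest folds again stood on few input tags.

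Besides Klf6 the annotation lists 10 genes in the stretch, all of them noncoding. Gm46401, a long noncoding RNA gene of 98.3 kb that begins after Klf6, held 4 melatonin and 9 untreated peaks. Gm40660 held 1 melatonin and 0 untreated peaks, and Gm40659, Gm40661, Gm35330 and 1700016G22Rik held 0 melatonin peaks and 1, 2, 1 and 2 untreated peaks. Gm24790, LOC115488222, Gm35413 and Gm35464 had none in either list. In all, 5 of 36 melatonin peaks (13.9%) and 15 of 72 untreated peaks (20.8%) touched an annotated gene, so most peaks of both lists lay between genes.

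The lists had some sites of the stretch in common. Of the melatonin peaks 11 (30.6%) overlapped an untreated peak by 1 bp or more, and 11 untreated peaks (15.3%) overlapped a melatonin peak, where 6.12% of all melatonin and 5.6% of all untreated peaks did so. Peaks were also denser in the stretch than elsewhere, and the shares were not adjusted for density. Requiring an overlap of 50% of the shorter peak left 4 and 4, and counting peaks within 5 kb of each other gave 24 melatonin peaks (66.7%) and 31 untreated peaks (43.1%). The overlaps measured 263 to 1000 bp. The melatonin peak had more normalized tags in 5 of the 11 pairs and the untreated peak in 6, so the shared sites had no common direction. In each pair of unequal width the wider peak had more tags, so the direction went with the called width. Where both peaks were 1000 bp wide the untreated peak had more, except in the pair at 5923103, and most of these differences were small.

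The shared pairs are given from lower to higher coordinates. At 5048002 the melatonin peak had 31.4 normalized tags on 4.5 input tags, and the untreated peak at 5049077 had 13.3 on 2.3. At 5159000 the melatonin peak had 13 tags on 4 input tags, and the untreated peak at 5158273 had 13.6 on 3.5. At 5249903 the melatonin peak had 12.7 on 2, and the untreated peak at 5250598 had 13.6 on 3.1. The last 2 pairs were close to even, unlike the first. At 5255480 the melatonin peak had 15.5 on 3.5, and the untreated peak at 5256521 had 11.7 on 3.1. At 5338411 the melatonin peak had 14.8 on 4.5, and the untreated peak at 5338686 had 15.9 on 3.1. At 5518685 the melatonin peak had 13 on 3, and the untreated peak at 5517663 had 30.3 on 5.5. This was the pair with the largest excess on the untreated side, and its untreated region was the wider one. At 5728285 the melatonin peak had 24.3 on 4, and the untreated peak at 5729339 had 18.6 on 4.7. At 5762090 the melatonin peak had 16.6 on 4, and the untreated peak at 5761446 had 18.2 on 3.9. At 5923103 the melatonin peak had 12.7 on 3, and the untreated peak at 5922477 had 12.5 on 3.9. This pair, the first after Klf6, was the most even of all. At 5990459 the melatonin peak had 25.7 on 7, and the untreated peak at 5991822 had 11.4 on 2. At 5997411 the melatonin peak had 13.8 on 4, and the untreated peak at 5997680 had 18.9 on 3.5. Beyond the stretch but within 500 kb of Klf6, a further 3 pairs lay at 6013974, 6024216 and 6285442 of the melatonin list.

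Of the other activator-like members, Klf4 had many peaks and Klf2 and Klf5 few. Klf4, a reprogramming factor of pluripotent cells (chromosome 4, 55527137 to 55532475), had 17 melatonin and 13 untreated peaks, a ratio of 1.31 (0.598 to 2.93). The nearest lay 48.7 kb away with melatonin, at 55581212 to 55582212 (12.3 normalized tags, 2 input tags, fold 7.61), and 43.1 kb away without, at 55575579 to 55576579 (15.2 tags, 3.9 input tags, fold 5.13). Both of these lay in the gap of 1208 kb between Klf4 and Actl7b, which had 12 melatonin and 7 untreated peaks in its first 500 kb. On the other side, past the DNA repair gene Rad23b, the nearest peaks were 186 kb away with melatonin and 208 kb away without. The Klf4 peak with the most tags was the melatonin region at 55884521 to 55886711. It was 2190 bp wide, with 27.2 normalized tags on 4 input tags and a fold of 8.37. Its untreated neighbour at 55883064 to 55884064 stopped short of it, with 12.5 tags on 3.5 input tags. That neighbour was only 1000 bp wide, so the 2 tag counts do not compare strength. At 2 sites the libraries did overlap: at 55172691 (18 tags with melatonin) with 55173375 (12.1 without), and at 55703405 (18) with 55703726 (13.3).

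Klf2, the shear-stress factor of quiescent endothelium (chromosome 8, 72319062 to 72321654), lay among 27 other protein-coding genes and had 2 melatonin peaks and 1 untreated peak. A melatonin peak at 72306351 to 72307625 lay 11.4 kb before the gene with 17.3 normalized tags, 3.5 input tags and a fold of 6.09. The other melatonin peak, at 71949222 to 71950222, had 13.4 tags on 4 input tags, and the untreated peak, at 72787668 to 72788668, had 12.5 on 3.9. The counts are too low to compare: within 1 Mb the ratio turned to 0.5.

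Klf5, a factor of proliferating epithelium that in mouse fat precursors acts upstream of Pparg (chromosome 14, 99298691 to 99313412), had 1 melatonin and 4 untreated peaks. The melatonin peak at 98925962 to 98926962 (12.7 normalized tags, 3.5 input tags) overlapped the untreated peak at 98926173 to 98927438 (18.6 tags, 4.3 input tags), 372 and 371 kb from the gene. The nearest untreated peak, at 99536348 to 99537348 (12.5 tags, 3.5 input tags), lay 223 kb away toward Klf12, and it is the one that counted for both genes. Klf5 had no peak within 100 kb in either list.

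Klf7, a factor of neuron development that restrains fat formation (chromosome 1, 64029448 to 64122345), had 5 melatonin peaks (Poisson interval 1.62 to 11.7) and 16 untreated peaks (9.15 to 25.98), a ratio of 0.313 (0.0895 to 0.893). The interval lies just below the overall ratio of 0.921, with no allowance for the choice of 9 genes. All 5 melatonin and 15 of the 16 untreated peaks lay on the side of Creb1, whose gap from Klf7 measures 410 kb. The melatonin peaks ended 169 kb from the gene, and 12 of the untreated peaks lay beyond that distance. Up to 169 kb the 2 lists were close, with 5 and 4 peaks. The strongest untreated peak beyond it, at 64361750 to 64363392 and 1642 bp wide, had 21.6 normalized tags on 5.1 input tags and a fold of 5.62. The highest fold was that of the outermost melatonin peak at 64290981 to 64291981, 16.1 on 1 input tag. The remaining untreated peak, at 63996164 to 63997460, was the only one on the other side, 32.0 kb from the gene, with 18.6 tags on 3.5 input tags.

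**Figure D5:**
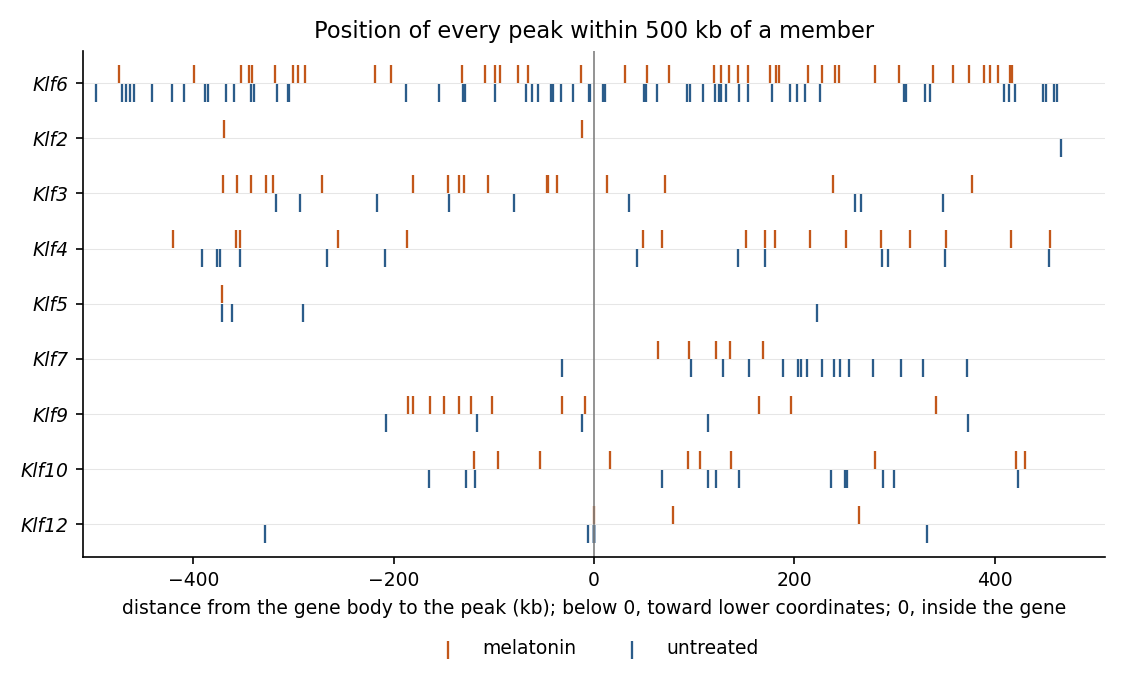
Distance from each member gene to every peak within 500 kb (x axis, kb), with melatonin peaks above and untreated peaks below each line, 1 library each. Peaks are dense on both sides of Klf6, the untreated peaks of Klf7 continue past the last melatonin peak at 169 kb, and the marks at 0 for Klf12 stand for 1 melatonin and 4 untreated peaks inside the gene.

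The CtBP-recruiting members were Klf3 and Klf12. Klf3, a repressor with roles in fat and blood cells (chromosome 5, 64803521 to 64832901), had 18 melatonin peaks (10.7 to 28.5) and 9 untreated peaks (4.12 to 17.1). The ratio was 2 (0.853 to 5.05), in the opposite direction to Klf6 and Klf7, with an interval that holds both 1 and 0.921, and it turned to 0.75 among peaks of 6-fold or more over input. Of all Klf3 peaks, 14 melatonin and 5 untreated peaks lay before the gene, within the 452 kb between Tbc1d1 and Klf3. The strongest was the melatonin peak at 64667288 to 64668866, 1578 bp wide, with 23.6 normalized tags on 5 input tags. The nearest peaks were after the gene, at 64845672 to 64846672 with melatonin (12.8 kb away, 17.3 tags, 4 input tags, fold 5.33) and at 64867710 to 64869262 without (34.8 kb away, 20.5 tags, 3.9 input tags, fold 6.92). None of the 27 Klf3 peaks overlapped between the libraries, where 6.12% of all melatonin and 5.6% of all untreated peaks did.

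Klf12, which represses the gene of transcription factor AP-2 alpha (chromosome 14, 99866181 to 100285891), was the only member with peaks inside the gene. It spans 420 kb and had 1 melatonin and 4 untreated peaks there. Over all protein-coding genes, 5.94% had a melatonin peak and 5.71% an untreated peak in the gene or 2 kb beside it, so 1 of 9 members in each library is near the background. Among the 316 genes at least as long as Klf12 the shares were 49.7% and 49.1%. The melatonin peak at 100214555 to 100215555 had 13 normalized tags, 3.5 input tags and a fold of 4.6. The untreated peaks at 99888614, 100108058, 100192158 and 100267640 had 12.1, 12.9, 12.5 and 12.9 normalized tags on 3.9, 3.9, 3.1 and 2 input tags, with folds of 4.1, 4.36, 5.29 and 8.72. None of the untreated peaks overlapped the melatonin peak, whose tags were like theirs. Over the whole lists only 6.12% of melatonin and 5.6% of untreated peaks overlapped, so this is no trait of Klf12. Within 500 kb the counts were 3 and 7, a ratio of 0.429 (0.0715 to 1.88). Like Klf6, Klf12 had no other protein-coding gene in its window, yet it had 10 peaks in both lists together, against 104 around Klf6.

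The Sin3-recruiting members were Klf9 and Klf10. Klf9, which responds to glucocorticoid and thyroid hormone (chromosome 19, 23141226 to 23168129), had 12 melatonin peaks (6.2 to 21.0) and 5 untreated peaks (1.62 to 11.7). The ratio was 2.4 (0.787 to 8.7), with 1 and 0.921 inside the interval. Between 100 and 200 kb before the gene, toward the ion channel gene Trpm3, there were 7 melatonin peaks and 1 untreated peak. Trpm3 ends 146 kb from Klf9, and the melatonin peaks at 150, 164, 180 and 186 kb lay beyond that end. The untreated peak, at 116 kb, lay between the 2 genes. Close to the gene both libraries had a peak, at 23130941 to 23131941 with melatonin (9.29 kb away, 19 normalized tags, 5.5 input tags, fold 4.27) and at 23128059 to 23129059 without (12.2 kb away, 12.9 tags, 3.5 input tags, fold 4.84). These 2 peaks did not overlap, where only 6.12% of all melatonin and 5.6% of all untreated peaks did. They were the closest to the Klf9 promoter in each list.

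Klf10, the TGF-beta inducible early gene whose loss weakens bone in mice (chromosome 15, 38291464 to 38300711), had 10 melatonin and 13 untreated peaks, a ratio of 0.769 (0.302 to 1.9). The nearest melatonin peak, at 38317272 to 38318272, lay 16.6 kb from the gene with 12.3 normalized tags on 1 input tag and a fold of 15.2. The nearest untreated peak, at 38369117 to 38370117, lay 68.4 kb away with 12.9 tags on 3.9 input tags. Within 100 kb there were 4 melatonin peaks and 1 untreated peak, a ratio of 4, so the order near the gene was opposite to that over 500 kb, and peaks of 6-fold or more also gave a ratio of 4. Klf10 had 1 shared site, the melatonin peak at 38170501 (15.9 tags) and the untreated peak at 38171281 (21.2 tags).

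Across the members the libraries did not differ in 1 direction. The melatonin count was higher at Klf2, Klf3, Klf4 and Klf9 and the untreated count at Klf5, Klf6, Klf7, Klf10 and Klf12. Among the 3590 protein-coding genes with 10 or more peaks in both lists together, the untreated count was at least 2 times the melatonin count in 12.9% and the melatonin count at least 2 times the untreated count in 11.6%. Klf7 and Klf12 met the first condition and Klf3 and Klf9 the second, out of 7 members with that many peaks. Over all members the counts of 111 and 128 gave a ratio of 0.867 (0.666 to 1.127), and without Klf6 the counts of 68 and 67 gave 1.01 (0.714 to 1.44), so the direction of the total rests on Klf6. Among peaks of 6-fold or more the members' counts were 36 and 30, a ratio of 1.2.

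Most of the members' peaks lay outside protein-coding genes, but the share differed between members. Of the 111 melatonin peaks 102 (91.9%) and of the 128 untreated peaks 123 (96.1%) lay outside every protein-coding gene body, against 70.7% and 72.0% over the whole lists. At Klf6, Klf2, Klf4, Klf5, Klf7 and Klf10 every peak of both lists did so. The exceptions were 2 melatonin peaks near Klf3, 6 melatonin and 1 untreated peaks near Klf9, and those inside Klf12. At Klf9 50% of melatonin and 80% of untreated peaks lay outside, and at Klf12 66.7% and 42.9%. Klf6, with no other protein-coding gene in its window, gave 43 of the melatonin and 61 of the untreated peaks. The members' shares therefore describe the choice of members and are not a trait of the family. Median folds over input were 5.34 with melatonin and 4.94 without, close to the 5.11 and 4.87 of the whole lists. Overlap between the libraries was 11.7% and 10.2% over all members, and 5.88% and 5.97% without Klf6, near the 6.12% and 5.6% of the whole lists.

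Relatives and partners of the members had 0 or 1 gene with a peak per list and library, and over all protein-coding genes the share was 5.94% with melatonin and 5.71% without, so these counts are near the background. None of the 8 other Kruppel-like factor genes (Klf1, Klf8, Klf11, Klf13, Klf14, Klf15, Klf16 and Klf17) had a peak in the gene or 2 kb beside it in either library. Of the 9 Sp factor genes, the sister family that binds the same GC boxes, Sp4 had 1 melatonin peak (fold 4.24) and none had an untreated peak. Of 10 partner genes, among them those for CtBP, Sin3 and acetyltransferases, Kat2b had 1 untreated peak (fold 15.4) and none had a melatonin peak. Within 500 kb the other Kruppel-like factor genes had a median of 1.5 peaks in each library and the Sp factor genes a median of 1, near the median of 1 over all protein-coding genes.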

How the data were processed

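H3K36me2 ChIP libraries of melatonin-treated and untreated MSCs (1 each, with 1 input each) were deposited as peak lists. Per the file headers, the authors ran HOMER findPeaks in histone style on windows of 1000 bp (at least 18 tags with melatonin, 17 without), requiring 4-fold enrichment over input and a Poisson p of 1e-04 against it. The submitters' processing notes name BWA 0.7.13, Picard 1.126, MACS2 2.1.0 and mm39, while the headers state no build. The last untreated peak on chromosome 3 ends at 159805034 and the last melatonin peak on chromosome 7 at 145328623, past the mm39 ends of these chromosomes, so coordinates were read as GRCm38, an inference. The deposited normalized tag count is a signal per 10000000 tags. ChIP and input tags are a deposited signal with the deeper library scaled down. Fold over input is the authors' ratio, the p-value over input the authors' own and unadjusted, and the findPeaks score, also deposited, was not used. Peaks came from each library alone.

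Peaks overlapping a window by 1 bp were counted with Python 3.11.15, pandas 2.3.3 and scipy 1.17.1 (exact 95% Poisson and binomial intervals), after the counters were tested on simulated data. Genes were those of RefSeq, GRCm38.p6, matched by symbol (9 of 9 members). Named were all members, listed relatives and partners with a peak, the neighbours, each library's 3 strongest peaks of the stretch by tags and by fold, shared pairs, and peaks in or nearest other members. Other peaks named were chosen after their values were seen. The members and lists were chosen with earlier results of these data known. Alternatives varied the fold, p, number of peaks, windows and overlap.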

Additional observations from a re-analysis of the deposited data

How the results depend on the processing

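The ratio in the stretch stayed below 1 under all 6 alternatives, from 0.486 to 0.667. Raising the required fold to 6 left 12 melatonin and 18 untreated peaks there, and 36 and 30 near all members, which turned the members' ratio to 1.2. At that fold the ratio was 0.75 at Klf3 and 4 at Klf10, both reversed. Widening the stretch to 4.5 to 6.5 Mb gave 73 and 120 peaks, and to 4 to 7 Mb 74 and 125. With 100 kb on either side of the members the counts were 26 and 29 and Klf10's ratio reversed to 4. With 1 Mb they were 172 and 209 and Klf2's ratio reversed to 0.5. Leaving out Klf6, an alternative chosen after seeing the data, gave 68 and 67, with a ratio of 1.01. Shared peaks in the stretch numbered 4 and 4 at an overlap of 50% of the shorter peak, and 24 and 31 within 5 kb. Shares over the whole lists were not computed at these settings. With 10 kb on either side 2 members in each library had a peak, Klf9 and Klf12 with melatonin and Klf6 and Klf12 without. The share over all protein-coding genes was not computed at 10 kb, so nothing is read from these counts. Changes in counts follow from fewer peaks or other windows; the cause of the reversals was not tested. No paired analysis was possible because each condition had 1 ChIP library. Peaks of about 14 to 60 tags near a threshold of 4-fold limit what 1 library can show, and sites below it were not analysed here.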
